A study of Mus musculus with 4 samples.

Results

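Biliary epithelial cells line the bile ducts, and a set of surface and secreted genes is used to recognise them apart from their keratins and claudins. The 9 genes described here are Spp1, Muc1, Cd24a, Prom1, Cdh1, Cftr, Tspan8, Tm4sf4 and Anxa13. They were chosen by name as such markers, with earlier results of these data known. They were measured by 12 of the 25697 probes of an Illumina bead array, which cover 8 of the 9 genes. Muc1 had 4 probes, Tm4sf4 had 2 and the other 6 genes had 1 each, while Spp1 had no probe named here. RNA came from whole livers at postnatal day 1 of B6;129 mixed mice, with 2 arrays for Lats1-/-;Lats2f/fl;Alb-cre livers (DKO) and 2 for livers labelled wild type (Control). Lats1 was missing from every cell of the DKO mice, whereas Lats2 was to be deleted only where the albumin promoter drives Cre, in hepatoblasts and the hepatocytes and biliary cells that descend from them. LATS1 and LATS2 are the kinases that hold back the co-activators YAP and TAZ, and the comparison asked whether biliary surface genes differ in livers without them. The labels do not state whether the 2 arrays of a group are separate animals, so p-values here reflect only the spread among these 4 samples, part of which may be technical.

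In the developing liver, hepatoblasts at the portal veins form the ductal plate and then bile ducts. The cells of a duct are polarised. Mucins, prominin and chloride channels face the lumen, E-cadherin holds neighbouring cells together, and osteopontin is secreted. Several of these genes are not restricted to ducts. E-cadherin is also made by hepatocytes near the portal vein, and CD24 is abundant on erythroid, granulocytic and B-lymphoid precursors, which fill the liver around birth.

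Between 12514 and 13641 probes were detected per array (detection p under 0.05, from the file's own comparison with negative controls), and the lowest intensity that counted as detected lay between 192 and 203 units. Values below are log2 intensities after background correction and quantile normalization unless intensity is named, and a change is DKO minus Control. A probe was tested by limma where at least 2 of the 4 arrays detected it, which held for 13654 probes and for 6 of the 12 described here. With 2 arrays per group, an exact two-sided permutation test of a single probe cannot go below p = 0.333. All 4 livers are labelled female, but the Y-linked gene Eif2s3y read 4.76 and 4.94 in the DKO livers, 4.69 in Control replicate 1 and 11.31 in Control replicate 2. Xist (ILMN_3022688), the RNA of the silenced X chromosome, read 9.76 and 9.07 in the DKO livers, 9.86 in Control replicate 1 and 5.16 in Control replicate 2, which did not detect it. A second Xist probe (ILMN_3123341) read 8.68 and 8.36 in the DKO livers and 9.36 in Control replicate 1. Control replicate 2 read 5.85 and did detect that probe. The array labelled Control replicate 2 thus goes against its label in sex, the 2 Control arrays do not read as the same animal, and whether its genotype label holds was not tested. With that array left out, the changes described below were 0.86 for Tspan8, 1.10 and 1.09 for the 2 Tm4sf4 probes, 1.07 for Cdh1, 1.15 for Anxa13 and -0.95 for Cd24a, and none passed (adjusted p between 0.36 and 0.47 by limma). The Lats2 probe read 6.54 and 6.07 in DKO livers and 5.92 and 5.47 in Control livers (change 0.61, SE 0.37, adjusted p = 0.53 by limma). Its place relative to the deleted exons is not known here, so it does not check the genotype. Fewer cells of a type and less RNA per cell cannot be told apart in such bulk RNA.

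No biliary surface probe passed the threshold in either direction (0 of 6 tested, limma, adjusted p under 0.05), where 1.63% of all tested probes were higher and 1.61% lower (3.24% in either direction). At an unadjusted p under 0.05, 4 of the 6 were higher and 1 was lower, against 7.57% and 7.72% of all tested probes (15.3% in either direction). Anxa13 was tested only because DKO livers detected it, so it adds nothing to that count, which leaves 3 of 5. Values of the groups did not overlap at 4 of these 5 probes, nor at Anxa13, against 44.3% of all tested probes. Because the genes were chosen with earlier results of these data known, these counts are not a test of the set. The 4 higher probes were Tspan8, Cdh1 and 1 of the 2 Tm4sf4 probes, each about 2-fold brighter in DKO livers, and Anxa13, detected in DKO livers alone, and the lower one was Cd24a, about 2-fold dimmer in DKO livers. The smallest change of any tested probe that passed was 1.65, so changes of about 2-fold were called at no tested probe. No probe of Muc1, Prom1 or Cftr was detected on more than 1 of the 4 arrays.

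Tspan8 and Tm4sf4 encode proteins that cross the membrane several times. Tspan8 is a tetraspanin of epithelial surfaces and Tm4sf4 belongs to the related L6 family. Tspan8 (ILMN_1220261) read 10.91 and 10.67 in DKO livers, against 9.93 and 9.41 in Control livers. Both DKO values exceeded both Control values, as they did at 22.3% of all tested probes. Its change of 1.12 (SE 0.36, 95% interval 0.27 to 1.96) did not pass (adjusted p = 0.19 by limma). The raw intensities were 2059 and 1728 units in DKO livers and 1272 and 771 units in Control livers, so the difference was present before normalization.

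The 2 probes of Tm4sf4 differed in how closely the replicates lay. ILMN_2479370 read 12.91 and 13.15 in DKO livers and 11.93 and 12.16 in Control livers. The groups stood apart, the SD was 0.17 in DKO and 0.16 in Control livers (n = 2 each), and the change was 0.99 (SE 0.34, 95% interval 0.19 to 1.78, adjusted p = 0.22 by limma). ILMN_2901387 read 10.51 and 11.51 in DKO livers and 9.91 and 10.73 in Control livers. Here the groups overlapped, since DKO replicate 1 lay below Control replicate 2, and the change was 0.69 (SE 0.47, 95% interval -0.42 to 1.80, adjusted p = 0.59 by limma). The change at this probe was 1.19 when DKO replicate 1 was left out and 0.19 when DKO replicate 2 was, and it was 0.28 when Control replicate 1 was left out and 1.09 when Control replicate 2 was. After normalization replicate 2 was the brighter one in both groups at both probes. The raw intensities of ILMN_2479370 were 4429 units in Control replicate 1 and 4387 units in Control replicate 2, the other order. For Tspan8 replicate 1 was the brighter one in both groups.

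**Figure D1:**
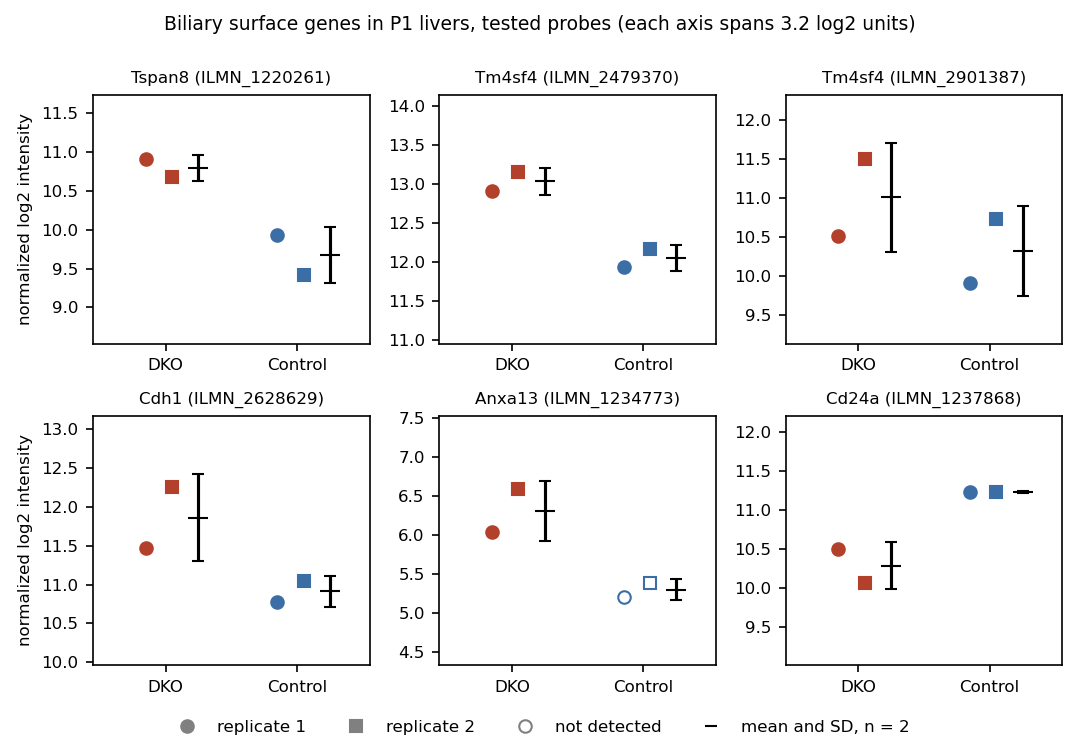
Normalized log2 intensity of the 6 tested probes on each array, with DKO left of Control, circles for replicate 1, squares for replicate 2, open symbols where the probe was not detected and black bars for the mean and SD (n = 2). DKO values lie above both Control values for Tspan8, Cdh1, Anxa13 and Tm4sf4 probe ILMN_2479370, overlap them for Tm4sf4 probe ILMN_2901387 and lie below them for Cd24a.

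The upstream sequences of Tspan8 and Tm4sf4 are shown because, of the genes whose groups stood apart, these have a window in the RefSeq promoter table (build GRCm38.p6). Each holds the 250 bases before the annotated start, 5′ to 3′ along the gene's strand. Capitals mark a match to 1 of 3 searched motifs on either strand: GGAATG, the core bound by the YAP partners of the TEAD family, TGANTCA, bound by AP-1, and GTTAAT, a part of the site bound by HNF1 factors (called the short HNF1 site here). No match overlapped another in the windows of these genes.
Tspan8, chr10:115817034-115817283, + strand: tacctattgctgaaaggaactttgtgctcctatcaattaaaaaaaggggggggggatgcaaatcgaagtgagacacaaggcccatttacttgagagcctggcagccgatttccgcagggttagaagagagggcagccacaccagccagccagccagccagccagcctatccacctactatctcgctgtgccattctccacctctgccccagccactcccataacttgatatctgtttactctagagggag
Tm4sf4, chr3:57425160-57425409, + strand: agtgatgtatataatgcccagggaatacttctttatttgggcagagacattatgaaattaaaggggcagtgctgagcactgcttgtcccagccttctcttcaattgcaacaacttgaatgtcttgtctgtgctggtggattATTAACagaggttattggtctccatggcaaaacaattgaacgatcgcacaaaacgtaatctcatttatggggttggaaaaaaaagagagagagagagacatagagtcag
The Tspan8 window held none of the 3 motifs. The Tm4sf4 window held 1 short HNF1 site, read as ATTAAC, that begins 109 bases before the start. Among all 32851 windows of this length, 12.64% held the TEAD core, 6.75% the AP-1 site and 6.43% the short HNF1 site. The table had 8 windows for 6 of the 9 genes, and 3 of the 8 held no motif. The TEAD core occurred once, in the window of Muc1, an AP-1 site in each of the 2 windows of Prom1, and a short HNF1 site in 1 of the 2 windows of Spp1. These are matches of letters, and the arrays carry no measure of binding.

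Cdh1 encodes E-cadherin, the calcium-dependent adhesion protein of epithelial junctions. Its probe (ILMN_2628629) read 11.47 and 12.25 in DKO livers, against 10.77 and 11.05 in Control livers. Both DKO livers were brighter than both Control livers, with the larger spread among DKO livers (SD 0.56, against 0.19 in Control livers, n = 2 each). The change of 0.95 (SE 0.39, 95% interval 0.02 to 1.87) did not pass (adjusted p = 0.32 by limma). It was 0.55 without DKO replicate 2 and 1.34 without DKO replicate 1. Raw intensities were 2953 and 4907 units in DKO livers and 2159 and 2118 units in Control livers.

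Around Cdh1, a list of other cadherins, catenins and desmosomal genes had 22 entries, 19 with a probe and 13 tested. Of these 1 rose and 0 fell, against 1.75% and 1.68% of the 9502 tested genes (a gene stands for its brightest tested probe), and the median change was 0.73, against 0.0046 over all tested genes. At an unadjusted p under 0.05 by limma, 6 were higher and 0 lower, against 7.57% and 7.72% of all tested probes. Here and for the lists below, unadjusted counts are of genes, whereas these shares are of probes. The gene past the adjusted threshold was Ppl, which encodes periplakin, a linker of desmosomes to intermediate filaments. Ppl read 8.57 and 8.79 in DKO livers and 6.07 and 5.62 in Control livers, 7.12-fold higher (change 2.83, SE 0.35, adjusted p = 0.0087 by limma). Control replicate 2 did not detect it, and its change was 1.42 without background correction. The other cadherins tested, named after their values were seen, were Cdh6, Cdh17 and Cdh2. Cdh6 read 6.55 and 8.66 in DKO livers and 4.77 and 5.37 in Control livers, where neither array detected it, and did not pass (at least 4.02-fold on the background-corrected scale, adjusted p = 0.11 by limma). Cdh17 was likewise detected only in DKO livers and did not pass (adjusted p = 0.25 by limma). Cdh2, the N-cadherin of hepatocytes and mesenchyme, had a change of -0.48 (SE 0.34, adjusted p = 0.61 by limma). Cdh6 and Cdh17, both counted above as higher at the unadjusted threshold, were tested only through the DKO livers, where they were detected. Pkp3, named after its values were seen, was tested in the same way, and its change is the list's median of 0.73. That median is therefore no evidence of a rise in the list.

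Anxa13 encodes a calcium-dependent protein that binds phospholipids on the inner face of epithelial membranes. Its probe (ILMN_1234773) gave intensities of 217 and 249 units in DKO livers, against 181 and 190 units in Control livers. It was detected on both DKO arrays and on neither Control array. The probe therefore entered the test only through the DKO livers, and its level in Control livers is known only as a limit. On the background-corrected scale Anxa13 was at least 1.64-fold higher (adjusted p = 0.24 by limma, not past the threshold). Such a bound sets the mean of the DKO arrays against the lowest levels that counted as detected on the Control arrays. The bound rests on the background correction, since the fitted change of 1.02 (SE 0.36) was 0.32 without it and 0.63 with a larger offset.

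Cd24a encodes a small, heavily glycosylated protein anchored to the membrane by a lipid. Its probe (ILMN_1237868) was the one tested member with lower values in DKO livers, 10.49 and 10.07, against 11.23 and 11.22 in Control livers. Both DKO livers lay below both Control livers, as at 22.0% of all tested probes. After normalization the SD of the Control livers was 0.0073 (n = 2), whereas their raw intensities, given below, lay further apart. The change of -0.95 (SE 0.35, 95% interval -1.76 to -0.14) did not pass (adjusted p = 0.25 by limma). Raw intensities were 1580 and 1180 units in DKO livers and 2864 and 2352 units in Control livers.

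Markers of blood cells that carry CD24 had mostly lower values in DKO livers on the same arrays. Of 7 tested erythroid markers 0 passed in either direction by limma. At an unadjusted p under 0.05, 4 of them were lower, as were 7.72% of all tested probes. All 7 changes were negative and their median was -0.95, against 0.0046 over all tested genes. The summed level of the erythroid markers was 111915 to 128682 normalized units in DKO livers and 168722 to 175171 in Control livers, with Epb42 undetected on every array. Of 7 tested markers of B cell precursors 0 passed (2 were lower at an unadjusted p under 0.05), with a median of -0.61 and sums of 1032 to 1402 units in DKO livers and 1544 to 2688 units in Control livers. Pax5 was undetected on every array. The median of this list is the change of Blnk, which was tested only through the Control livers, where alone it was detected. Ebf1 was tested only through the DKO livers. Both were named after their values were seen. Of 9 granulocyte markers 0 passed (1 was lower at an unadjusted p under 0.05), with a median of -0.33 and sums of 95982 to 102874 units in DKO livers and 106594 to 157504 units in Control livers. The higher Control sums of B cell precursor and granulocyte markers came from Control replicate 2, the array that goes against its sex label. Control replicate 1 gave 1544 and 106594 units, near the 1402 and 102874 units of DKO replicate 1. For most markers in both lists the values of the groups overlapped. The part of these cells in the Cd24a difference was not tested.

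Muc1 encodes a transmembrane mucin of luminal surfaces, Prom1 encodes prominin-1 (CD133), a protein of membrane protrusions that also marks liver progenitors, and Cftr encodes the chloride channel through which ducts drive fluid into bile. None of their 6 probes was detected on 2 arrays, and none was tested. Muc1 probe ILMN_1231229 gave 177 and 230 units in DKO livers and 178 and 186 units in Control livers, and ILMN_1250138 gave 176 and 210 units in DKO livers and 174 and 174 units in Control livers. Both were detected in DKO replicate 2 alone. The other Muc1 probes were detected on no array, ILMN_1259202 with 174 and 184 units in DKO livers and 158 and 159 units in Control livers, and ILMN_2928489 with 161 and 192 units in DKO livers and 166 and 198 units in Control livers. The 4 probes, annotated to the same transcript, thus gave no common order of the groups. Against the lowest detected value, the bound for ILMN_1231229 was 1.07-fold, and none could be given for the other 3.

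The Prom1 probe (ILMN_2505476) gave 182 and 193 units in DKO livers and 185 and 204 units in Control livers. It was detected in Control replicate 2 alone, the array that read high for a Y-linked gene, and the groups overlapped. The Cftr probe (ILMN_1259577) gave 164 and 185 units in DKO livers and 171 and 180 units in Control livers. No array detected it, and no fold is given. At this brightness a difference between the groups in Prom1 or Cftr was not detectable.

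**Figure D2:**
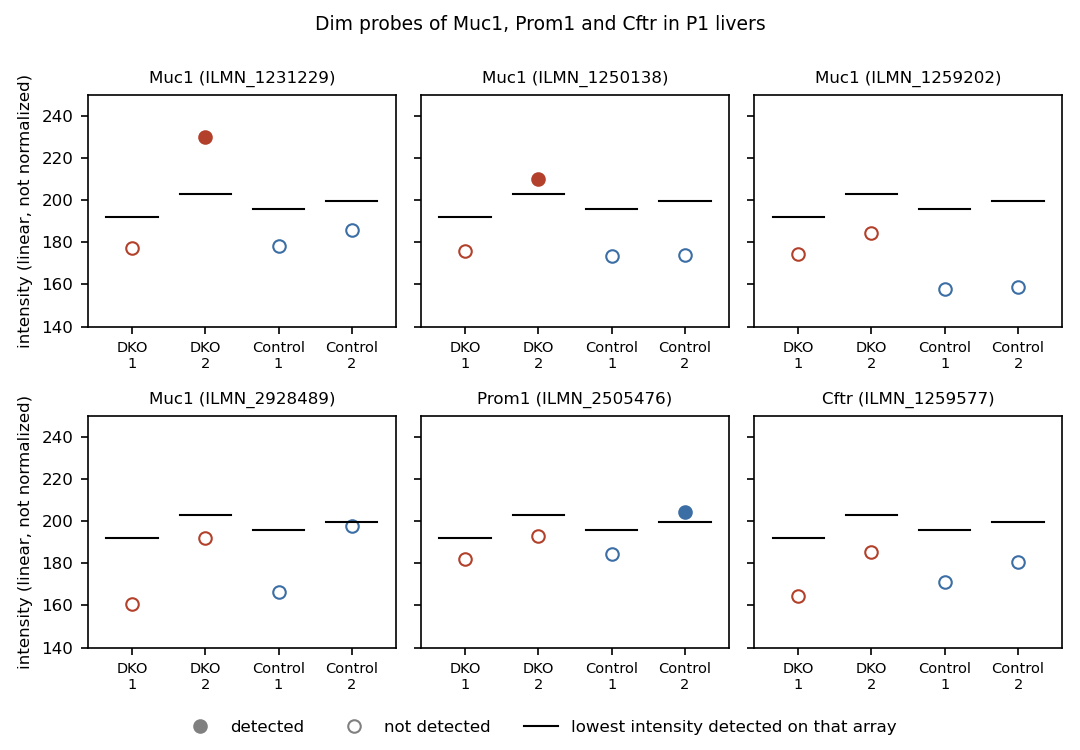
Linear intensity, before normalization, of the 6 probes of Muc1, Prom1 and Cftr on the 2 DKO arrays (left) and the 2 Control arrays (right), with filled points where the probe was detected and a black line at the lowest intensity detected on that array. Only 2 Muc1 probes in DKO replicate 2 and Prom1 in Control replicate 2 lie above the line.

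Genes that work beside these members were counted in the same way. Of 10 tested genes of bicarbonate and fluid secretion, the partners of Cftr, 0 passed by limma, and the median change was 0.12. At an unadjusted p under 0.05, 2 were higher and 1 lower, against 7.57% and 7.72% of all tested probes. Among those detected in both groups, the changes farthest from 0 were those of Slc12a2, a sodium-potassium-chloride cotransporter (1.12, SE 0.35, adjusted p = 0.17 by limma), and Kcnn4, a calcium-activated potassium channel (-1.08, SE 0.41, adjusted p = 0.27 by limma). Ano1, a calcium-activated chloride channel, was detected on both DKO arrays and on neither Control array, and did not pass (adjusted p = 0.29 by limma). Ano1 is among the 2 counted above as higher but was tested only through the DKO livers, so it adds nothing to that count. Among the other mucins and Prom2, 6 genes had a probe and only Muc13, a transmembrane mucin, was tested. Muc13 read 9.88 and 9.03 in DKO livers and 7.82 and 7.84 in Control livers, and its change of 1.63 (SE 0.40) did not pass (adjusted p = 0.089 by limma). Muc4, Muc6, Muc15 and Muc20 were undetected on every array.

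Of 14 tested tetraspanins and L6 family genes other than Tspan8 and Tm4sf4, 0 passed by limma, with a median of 0.14. At an unadjusted p under 0.05, 3 were higher and 2 lower, against 7.57% and 7.72% of all tested probes. The integrin partner Cd151 had a change of 1.56 (SE 0.47) and Tspan3 of 1.56 (SE 0.49), both short of the threshold (adjusted p = 0.16 and 0.17 by limma). Of 6 tested receptors for osteopontin, the product of Spp1, 0 passed (limma; 1 was higher and 1 lower at an unadjusted p under 0.05), with a median of 0.13. Itgb6, an integrin subunit of epithelia, read 6.87 and 8.67 in DKO livers and 5.06 and 6.03 in Control livers (change 2.23, SE 0.63, adjusted p = 0.13 by limma), detected on 1 of the 2 Control arrays. Itgb5 had a change of -0.88 (SE 0.36, adjusted p = 0.31 by limma).

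Other markers of biliary epithelial cells, keratins among them, were read on the same arrays. Of 10 tested genes in that list 3 rose and 0 fell (limma), against 1.75% and 1.68% of all tested genes, with a median change of 0.75 and 6 further genes undetected on every array. Krt19, among the 3, and Pkhd1, named after its values were seen, were tested only through the DKO livers, which alone detected them. They add nothing to that count or to the median. Krt7 and Krt19, among the 3, had already been reported as higher by the study, so the count is not independent of that report. Of the 10 changes 8 were positive and 2 negative. Aqp1, the brightest tested gene of the list and named after its values were seen, read 13.49 and 12.75 in DKO livers and 14.34 and 13.70 in Control livers. Its change of -0.91 (SE 0.42) did not pass (adjusted p = 0.37 by limma). The summed level of the list was 15285 to 15612 normalized units in DKO livers and 14344 to 21640 in Control livers. Krt7, a keratin of bile duct cells, read 10.67 and 11.50 in DKO livers and 5.48 and 6.69 in Control livers, 32.1-fold higher (95% interval of the log2 change 3.81 to 6.19, adjusted p = 0.0042 by limma). Control replicate 1 did not detect it, and its log2 change was 3.39 without background correction, 4.40 with Control replicate 1 left out and 5.62 with Control replicate 2 left out, each past the threshold. Krt19, its partner keratin, was undetected in both Control livers and at least 15.9-fold higher on the background-corrected scale (adjusted p = 0.0064 by limma). Without background correction its log2 change was 2.53 and did not pass. The third was Bicc1, an RNA-binding protein of tubular epithelia (change 2.90, SE 0.46, adjusted p = 0.019 by limma). Its call was lost when either Control array was left out, with changes of 2.75 (replicate 1 left out) and 3.06 (replicate 2 left out). The intervals of the 6 tested surface probes all ended at or below 1.96, whereas that of Krt7 began at 3.81. Whether the surface genes changed less than the keratins was not tested as such.

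**Figure D3:**
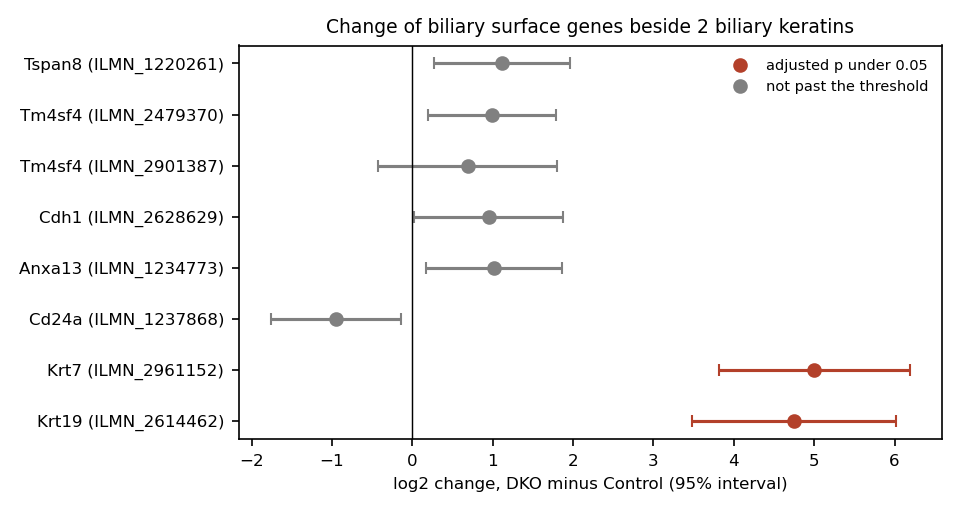
Fitted log2 change, DKO minus Control, of the 6 tested surface probes and of Krt7 and Krt19, with bars for the unadjusted 95% interval and red for an adjusted p under 0.05. The surface probes lie between -0.95 and 1.12, and the intervals of Krt7 and Krt19 begin at 3.81 and 3.47, where Krt19 is a fitted value for a probe undetected in both Control livers.

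Hepatocytes make up much of the liver at this age. Of 11 hepatocyte markers tested, 0 rose and 3 fell (limma), against 1.75% and 1.68% of all tested genes, with a median of -0.89. Those that fell were Cyp2e1, Asgr1 and Cyp7a1. DKO replicate 2 did not detect Cyp2e1 or Cyp7a1. With no filter 1 marker fell, and under the methods' t-test after adjustment 0 did. The summed level of the list was 176163 to 198252 normalized units in DKO livers and 232688 to 250917 in Control livers. It was carried mostly by the brightest markers, none of which passed. No marker of macrophages (8 tested), of fibroblasts and stellate cells (10 tested) or of endothelial cells (10 tested) passed by limma. At an unadjusted p under 0.05 only 1 fibroblast marker was lower, where 7.72% of all tested probes were. The medians of these lists, in that order, were -0.27, -0.46 and -0.45. The summed fibroblast level was 10627 to 22545 units in DKO livers and 14729 to 30251 units in Control livers, the macrophage level 11759 to 14781 units in DKO and 16691 to 17260 units in Control livers, and the endothelial level 5811 to 7934 units in DKO and 7487 to 9638 units in Control livers. Lrat and Cd5l were undetected on every array. Kdr, an endothelial marker named after its values were seen, was tested only through the Control livers. The part of any of these cell types in the surface gene values was not tested.

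**Figure D4:**
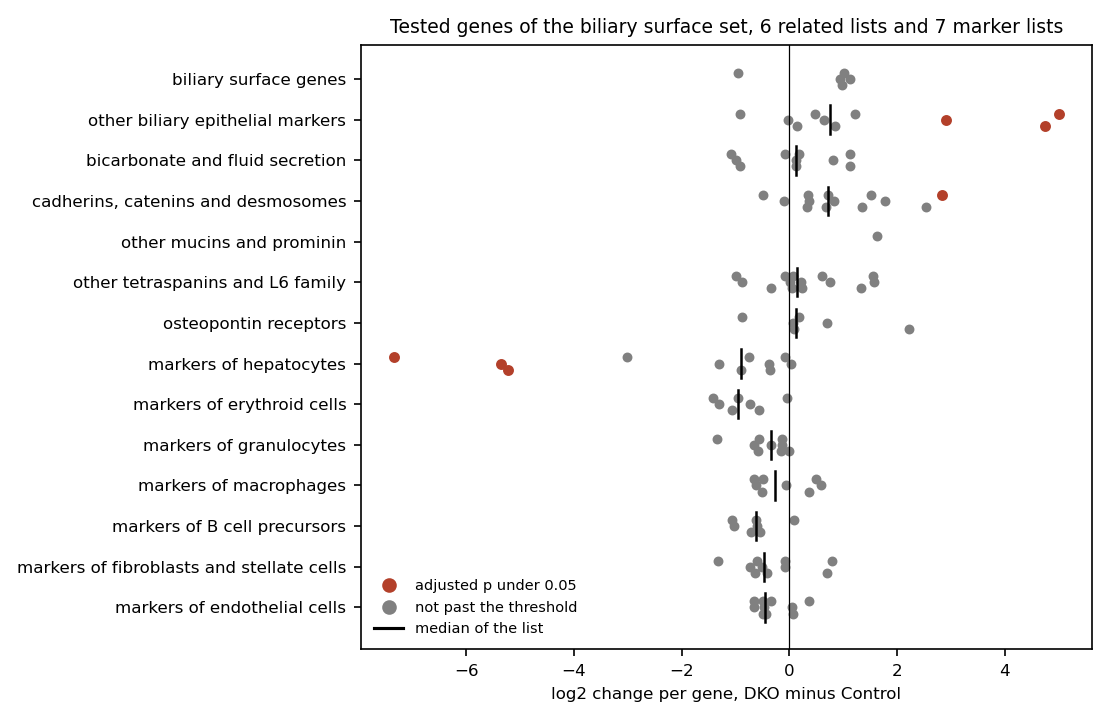
Log2 change per tested gene, DKO minus Control, for the biliary surface genes, 6 lists of related genes and 7 lists of cell type markers, with red for an adjusted p under 0.05 and a black bar for the median of a list of more than 1 gene. Calls appear in the other biliary markers (3 higher), the cadherin and desmosome list (1 higher) and the hepatocyte markers (3 lower), and none among the surface genes.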

How the data were processed

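Biotin-labelled RNA of 4 livers was hybridised to Illumina MouseRef-8 v2.0 arrays. The authors deposited linear probe intensity without between-array normalization, a detection p-value for each probe on each array, and a second table of normalized intensity (column medians 197.86 to 198.09; how they were normalized is not stated). Groups and replicate numbers came from the sample titles. Intensities were background corrected with limma 3.58.1 in R 4.3.3 (normexp, levels of negative controls inferred from the detection p-values, offset 16, which pulls changes of dim probes toward 0), quantile normalized and set to log2. Probes that 2 or more of the 4 arrays detected (p under 0.05) were fitted with lmFit and eBayes, two-sided, with Benjamini-Hochberg adjustment over all 13654. The platform annotation named 23978 probes with 1 symbol, 0 with several and 1719 with none. 23962 matched RefSeq (GRCm38.p6). All probes of the 9 genes were described. Of each list of related genes, those past the threshold or else the 2 largest changes were named. Of the marker lists only genes past the threshold were, and exceptions chosen after their values were seen are marked in the text. Members and lists were chosen with earlier results of these data known. Alternatives covered background, normalization, filters, variance model, each array left out, a replicate block and the methods' t-test.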

Additional observations from a re-analysis of the deposited data

How the results depend on the processing

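Of the 6 tested surface probes, 0 were called higher or lower without background correction, with an offset of 50, with median scaling, with the authors' normalized values, with no filter, with detection on all 4 arrays (where Anxa13 was not tested), with detection p under 0.01, with trend and robust eBayes, or with any 1 array left out, and no change reversed its sign under any alternative. With the replicate number as a block, 3 were called higher, Tspan8 (adjusted p = 0.024 by limma), Anxa13 (0.038) and Tm4sf4 probe ILMN_2479370 (0.039), and 0 lower, with Cd24a at 0.0505. Same-numbered arrays deviated together (r = 0.54 across 13654 probes, which are not independent), but with 2 pairs and no label that ties numbers to litters or days, the samples share only a number. The methods' t-test, paired by that number, called 1 surface probe higher at its unadjusted threshold (Tm4sf4 ILMN_2479370) and 0 after Benjamini-Hochberg adjustment.

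Over all tested probes 443 were called, against 172 without background correction, 200 with the authors' values, 49 with no filter (25697 probes tested), 231 with detection on all 4 arrays, 1864 with the replicate block, 1370 by the methods' t-test unadjusted and 2 adjusted, and between 150 and 713 with 1 array left out. Such a fit assumes that the lone array varies like the other group. The call for Krt19 was lost without background correction, with the authors' values and with no filter, and that for Bicc1 in the same settings. The calls for Krt7 and Ppl were lost with no filter, and all 4 under the methods' t-test after adjustment. At its unadjusted threshold that test kept Krt7 and lost Krt19, Bicc1 and Ppl. Of 416 counts of genes over the lists and settings, 377 stayed within 1.5 times, 27 were larger and 12 smaller. Most of these counts were 0 in the main fit and 0 again, so 377 says little about the calls made. The 3 biliary genes called higher ranged from 0 to 4 over the settings. The 1 cadherin list gene called higher ranged from 0 to 5, and the 3 hepatocyte genes called lower from 0 to 5. Where no other cause is named, the cause was not tested. Signal near background limits Muc1, Prom1, Cftr and Anxa13.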
